A study of Mus musculus with 6 samples.

Results

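The histone cluster genes were taken as all rows of the deposited gene tables whose symbol begins with Hist1h, Hist2h, Hist3h or Hist4h, and 68 of the 24054 genes met this rule. Of these, 54 lie in the Hist1 cluster, 10 in Hist2, 3 in Hist3 and 1 is Hist4h4. By the protein they encode, 6 are linker histone H1 genes, 18 are H2A, 19 are H2B, 12 are H3 and 13 are H4 genes. RNA-seq was performed on 6 libraries of the DKI mouse ESC line, which carries a heterozygous Foxa2-Venus and a homozygous Sox17-Cherry fusion gene in all samples. The 3 populations were undifferentiated d0 ESCs sorted as negative for both reporters, d3F mesendoderm cells sorted at day 3 as Venus-positive and Cherry-negative, and d5FS endoderm cells sorted at day 5 as positive for both. Day 3 and day 5 cells had been treated with Wnt3a and Activin A, signalling proteins that direct ESCs towards endoderm, and each population had 2 replicates. All cells come from a single cell line, and the sorting reporters are the proteins of the endoderm TFs Foxa2 and Sox17 themselves. The comparison across d0, d3F and d5FS addresses which genes change as ESCs become endoderm.

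Core histones H2A, H2B, H3 and H4 wrap DNA into nucleosomes, and H1 binds the DNA between them. Most genes of these clusters are replication-dependent: they have no introns, they are transcribed mainly in S phase, when new DNA has to be packaged, and their mRNAs end in a short stem-loop instead of a poly(A) tail. The stem-loop is bound by the protein Slbp, which is needed to form, export and translate the mRNA. Rapidly dividing pluripotent cells spend much of their cycle in S phase. A few cluster genes encode testis-type histones that replace the common ones in male germ cells.

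The stem-loop was searched for in the annotated 3' UTRs (GENCODE M21, build GRCm38), because it sets these mRNAs apart from other coding mRNAs. The search asked for arms of 6 paired bases (a G-T pair allowed) that open with GG and close with CC, around a loop of 4 bases with T at positions 1 and 3. It was found in 46 of the 52 histone cluster genes with a 3' UTR of at least 16 bases (88.5%), against 206 of 20912 other protein-coding genes (0.985%). The 8 forms found are given below in DNA letters, with the loop in capitals.
10 H2A, 8 H2B, 3 H1 and 5 H3 genes: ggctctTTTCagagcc
H4 genes (7 genes): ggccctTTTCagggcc
H1, H2B and H3 genes (6 genes): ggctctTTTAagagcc
Hist1h4i and Hist2h4: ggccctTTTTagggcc
Hist1h4b and Hist1h4j: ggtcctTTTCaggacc
Hist1h4a: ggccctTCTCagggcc
Hist1h3g: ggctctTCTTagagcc
Hist2h2ac: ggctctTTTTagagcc
The form of Hist3h2ba lies at chr11:58949349-58949364 on the plus strand, 28 bases after the stop codon, and that of Hist1h2bh at chr13:23542928-23542943 on the minus strand, also 28 bases after it. That of Hist1h3g lies at chr13:23535889-23535904 on the plus strand. None of the H4 genes in which a stem-loop was found had the stem that the H2A, H2B, H3 and H1 genes share. No stem-loop was found in Hist1h1a, Hist1h2bc, Hist1h2bq, Hist1h2br, Hist2h2be and Hist2h3b, and the other 16 genes have no annotated 3' UTR of that length.

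Expected counts summed to between 16457729 and 22768686 per library. The sorted populations bore their own markers: all 7 pluripotency genes examined were called lower and all 7 endoderm genes higher from d0 to d5FS. The fibroblast genes examined as a sign of feeder cells were also higher in d5FS (4 of 6 tested), with summed levels of 9.95 and 12.8 CPM (counts scaled to a common library total) in d0, 34.3 and 73.7 CPM in d3F and 248 and 194 CPM in d5FS, while Lum stayed between 0 and 0.05 CPM and Dcn between 0.09 and 0.74 CPM. Thy1, of the same list, was not called and measured 3.17 and 1.30 CPM in d0 against 1.09 and 0.456 CPM in d5FS. The part of such cells in the results was not tested. The study's sample list names 1 library of each population mRNA and the other total RNA and does not say which replicate is which, whereas the labels and methods give ribosomal-depleted total RNA for all 6, so both replicates are given separately throughout.

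Reads of near-identical histone genes could not always be told apart. RSEM splits such reads among the genes they fit, which leaves fractions of a read, and 63 of the 68 genes had a fractional expected count (92.6%) against 11.3% of all other genes with a count (differences from a whole number under 0.005 were taken as whole). In the median histone cluster gene, 34.5% of the 100-base stretches of its transcript also occurred in the transcript of another gene, and in 25 genes more than 50% did. Levels of single genes that share stretches are therefore uncertain, and sums over a class depend less on the split. Hist1h2bq and Hist1h2br had equal counts in all 6 libraries. The testis-type genes Hist1h2aa and Hist1h1t, the linker histone genes Hist1h1a and Hist1h1b, and Hist1h4d, Hist2h4 and Hist2h2be shared no stretch.

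The histone cluster genes together took up several percent of all counts and were lower in d5FS than in d0 in both replicates. Their summed level was 32130 CPM in d0 replicate 1 and 49741 CPM in d0 replicate 2. It was 33716 and 38530 CPM in d3F, and 13133 and 25850 CPM in d5FS. Both d5FS libraries thus lay below all 4 others. As shares of all counts these sums were 3.21% and 4.97% for d0, 3.37% and 3.85% for d3F, and 1.31% and 2.58% for d5FS. The means were 40936 ± 12453 CPM in d0, 36123 ± 3404 CPM in d3F and 19491 ± 8992 CPM in d5FS (SD, n = 2). Within replicate 1 the d5FS sum was 0.409 times the d0 sum, and within replicate 2 it was 0.520 times. The d3F sum was 1.05 times the d0 sum in replicate 1 and 0.775 times in replicate 2, so d0 and d3F had no common order. In bulk RNA, fewer cells that express a gene cannot be told apart from less RNA per cell.

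**Figure D1:**
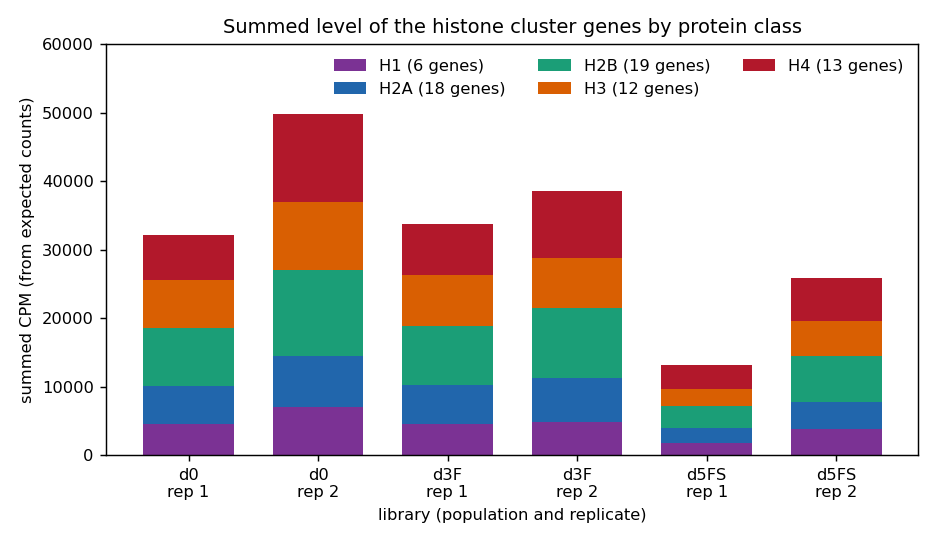
Summed CPM of the histone cluster genes (y axis, bars from 0) in each library (x axis), with the contribution of each protein class stacked. The d5FS bars, at 13133 and 25850 CPM, are the lowest, and replicate 2 is higher than replicate 1 in each population.

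On the scale of TPM, which divides each count by the gene's length and gives shares of transcripts, the sums were 73679 and 61155 TPM in d0, 74230 and 56974 TPM in d3F, and 19921 and 26404 TPM in d5FS. The d5FS libraries were again the lowest, at 0.270 times d0 in replicate 1 and 0.432 times in replicate 2. The order of the replicates turned with the scale: replicate 2 was above replicate 1 in all 3 populations in CPM (1.55, 1.14 and 1.97 times), but below it in d0 and d3F in TPM (0.830 and 0.768 times) and above it only in d5FS (1.33 times). Rmrp and Rpph1, short structural RNAs of RNA-processing enzymes that likewise have no poly(A) tail, together made up 28.5% and 35.2% of all TPM in the d0 libraries, 26.8% and 31.6% in the d3F libraries, and 28.4% and 21.2% in the d5FS libraries. Their part in the order of the replicates was not tested.

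All 5 protein classes followed the same order of populations within replicate 2, and all were lowest in d5FS in both replicates. The H4 genes summed to 6603 and 12811 CPM in d0, 7484 and 9778 CPM in d3F, and 3505 and 6324 CPM in d5FS. The H2B genes summed to 8390 and 12537 CPM in d0, 8636 and 10196 CPM in d3F, and 3279 and 6630 CPM in d5FS. The d5FS to d0 ratio in CPM ranged over the classes from 0.344 (H3) to 0.531 (H4) in replicate 1 and from 0.494 (H4) to 0.541 (H2A) in replicate 2. The spread between classes was thus smaller in replicate 2, and H4 had the highest ratio in replicate 1 but the lowest in replicate 2.

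From d0 to d5FS, 20 histone cluster genes fell and none rose. Of the 68 genes, 67 had enough counts to be tested, and a gene was called at an adjusted p below 0.05 in edgeR's quasi-likelihood test and a log2 fold change beyond 1 in size. Over all 14539 genes tested, 10.4% were called lower and 12.4% higher, against 29.9% of the histone cluster genes called lower. All 67 genes had a negative log2 fold change, with a median of -1.22, while the median of all genes tested was 0.02. Without Hist1h2ap and Hist2h2aa2, whose replicate 1 libraries were at 0 in 2 of the 3 populations, the median of the other 65 was -1.25. In 51 of the 68 genes both d5FS libraries lay below both d0 libraries in CPM, against 21.3% of all genes with a count, and in none did both lie above. With the replicate number added to the model, 45 genes were called lower, including all 20, and none higher, against 13.6% of all genes called lower. The size of the change depends on single libraries. The median was -1.63 without d0 replicate 1, -0.78 without d0 replicate 2 and -0.79 without d5FS replicate 1. Over all genes it was 0.06, 0.06 and -0.02 in these fits. In DESeq2's test against a log2 fold change of 1, 6 were called, beside 1004 of all 24054 genes in either direction.

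**Figure D2:**
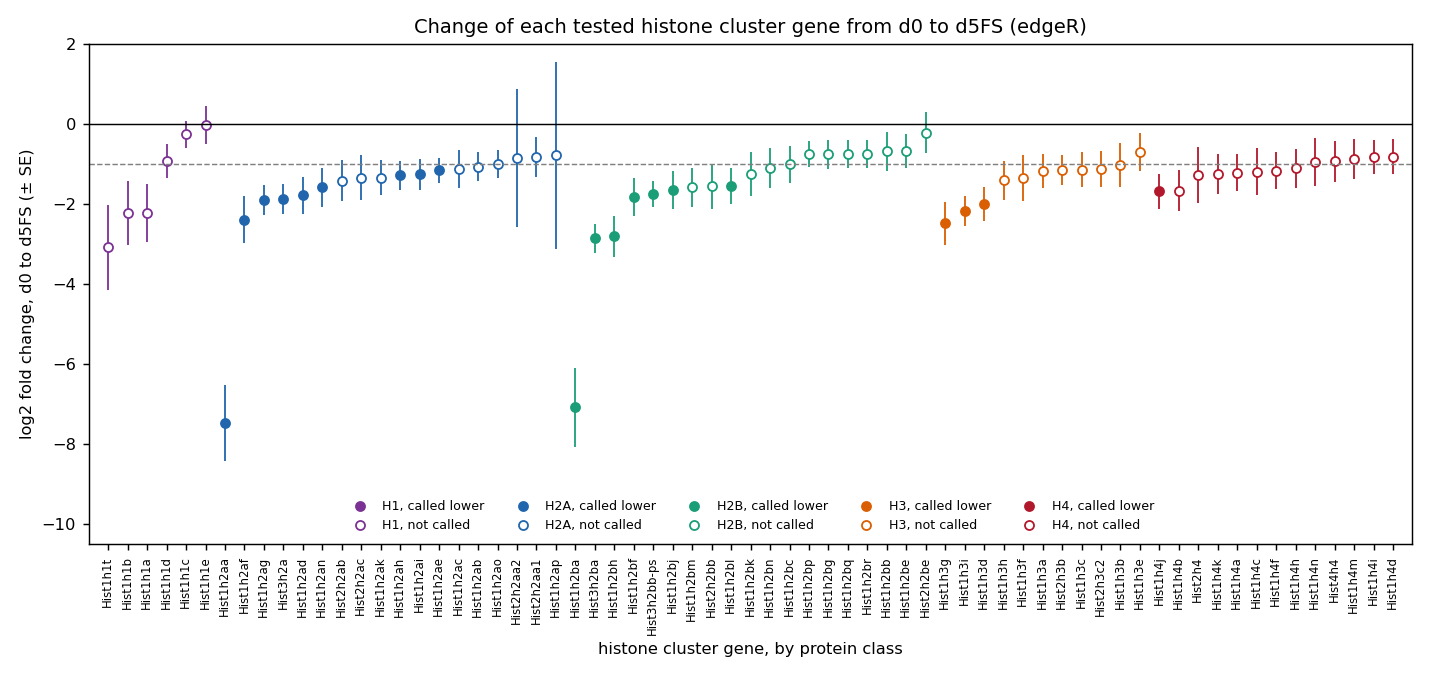
Log2 fold change from d0 to d5FS (y axis, error bars SE) of the 67 histone cluster genes tested, ordered within each protein class (x axis); filled points were called lower in edgeR and the dashed line marks the threshold of -1. All points lie below 0, with Hist1h2aa and Hist1h2ba at -7.48 and -7.09. Those of Hist1h2ap and Hist2h2aa2 rest mainly on their replicate 2 libraries.

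The genes called lower were 9 of the 18 H2A genes, 7 of the 19 H2B genes, 3 of the 11 H3 genes tested and 1 of the 13 H4 genes, and none of the 6 H1 genes. With the replicate number in the model these counts were 15, 10, 9, 8 and 3. By cluster they were 17 of 54 in Hist1, none of the 9 tested in Hist2, 3 of 3 in Hist3 and none for Hist4h4, and with the replicate number in the model 37, 5, 3 and none. The differences between classes and clusters were not tested. Apart from the testis-type genes, log2 fold changes of the called genes ran from -1.16 (Hist1h2ae) to -2.86 (Hist3h2ba).

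Hist1h4h was the most abundant H4 gene per length. H4 is the most uniform histone, and its genes encode the same protein. Hist1h4h measured 970 and 2036 CPM in d0, 1147 and 1521 CPM in d3F, and 603 and 939 CPM in d5FS. Each d5FS library was below all others, but d0 replicate 1 lay near d5FS replicate 2. Between d0 and d5FS its log2 fold change was -1.11 ± 0.49 (SE), adjusted p = 0.132, and -1.03 ± 0.23 with an adjusted p of 0.0149 when the replicate number was in the model. Hist1h4d, Hist1h4k and Hist1h4f, the next most abundant by TPM, had log2 fold changes of -0.82, -1.25 and -1.17, none of them called. Hist1h4k and Hist1h4f were called lower with the replicate number in the model (adjusted p = 0.0072 and 0.0090). Hist4h4, alone on chromosome 6, measured 326 and 674 CPM in d0, 481 and 775 CPM in d3F, and 216 and 362 CPM in d5FS. Its d5FS and d0 libraries overlapped, and its log2 fold change was -0.94 ± 0.51 (adjusted p = 0.214). Hist2h4 measured 72.3 and 223 CPM in d0, 136 and 193 CPM in d3F, and 31.7 and 103 CPM in d5FS, with replicate 2 above replicate 1 in each. Its d5FS and d0 libraries overlapped, and its log2 fold change from d0 of -1.28 ± 0.70 was not called (adjusted p = 0.210). With the replicate number in the model it was called lower from d0 to d5FS (-1.27, adjusted p = 0.0208) and from d3F to d5FS (-1.56, adjusted p = 0.0399).

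Hist2h2bb, an H2B gene of the Hist2 cluster on chromosome 3, had the highest mean TPM of all histone cluster genes. It measured 1710 and 2542 CPM in d0, 1543 and 2008 CPM in d3F, and 392 and 1168 CPM in d5FS. The d5FS libraries were the lowest, with a log2 fold change from d0 of -1.56 ± 0.57 (adjusted p = 0.0779). Fitted with the replicate number, the change was -1.71 ± 0.30 with an adjusted p of 0.0069, past the threshold. The H2B gene Hist1h2bh had one of the largest decreases: it measured 337 and 338 CPM in d0, 297 and 242 CPM in d3F, and 26.4 and 76.4 CPM in d5FS. Its d0 libraries were nearly equal and both d5FS libraries were far below them, at a log2 fold change of -2.81 ± 0.51 (adjusted p = 0.0085). This decrease was called in every alternative and without any single library. At the other end, Hist2h2be measured between 1.31 and 4.13 CPM in all 6 libraries, with both d3F libraries (4.13 and 2.61 CPM) above all others, and it was not called in any comparison.

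All 3 Hist3 genes fell from d0 to d5FS. These are the H2B gene Hist3h2ba and the H2A gene Hist3h2a on chromosome 11, and Hist3h2bb-ps, which the annotation lists as a pseudogene. Hist3h2ba measured 82.1 and 74.4 CPM in d0, 111 and 54.4 CPM in d3F, and 12.1 and 11.3 CPM in d5FS. The d5FS libraries were nearly equal and lay below all others, and the log2 fold change from d0 was -2.86 ± 0.36 (adjusted p = 0.0029), called in every alternative and without any single library. Hist3h2bb-ps measured 25.4 and 27.2 CPM in d0, 31.6 and 24.1 CPM in d3F, and 9.85 and 7.16 CPM in d5FS, a log2 fold change of -1.76 ± 0.33 (adjusted p = 0.0091) that lost its call without d5FS replicate 2. Hist3h2a measured 269 and 421 CPM in d0, 321 and 355 CPM in d3F, and 92.8 and 114 CPM in d5FS, a log2 fold change of -1.88 ± 0.38 (adjusted p = 0.0120) that lost its call without d5FS replicate 1. Neither Hist3h2bb-ps nor Hist3h2a was called in DESeq2's test against a log2 fold change of 1 (adjusted p = 0.370 and 0.224). Hist3h2ba shared 4.85% of its 100-base stretches and Hist3h2bb-ps 6.83%, each with the other. Hist3h2a shared 29.8%, with Trim17, a gene outside the histone clusters. The part of read assignment in the level of Hist3h2a was not tested. Fitted over all populations, the log2 differences of replicate 2 from replicate 1 were -0.26 for Hist3h2ba, -0.07 for Hist3h2bb-ps and 0.54 for Hist3h2a. In single populations they reached -0.86 for Hist3h2ba in d3F, -0.34 for Hist3h2bb-ps in d5FS and 0.88 for Hist3h2a in d0.

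Among the H3 genes, whose protein carries many of the known histone modifications, Hist1h3g fell from d0 to d5FS. It measured 507 and 935 CPM in d0, 517 and 467 CPM in d3F, and 84.6 and 197 CPM in d5FS. The d5FS libraries lay below all others, with a log2 fold change of -2.49 ± 0.53 (adjusted p = 0.0144), and the call was lost without d5FS replicate 1 (-1.98). Hist1h3c, the most abundant H3 gene per length, measured 1134 and 1612 CPM in d0, 1004 and 1141 CPM in d3F, and 453 and 903 CPM in d5FS, a log2 fold change of -1.14 ± 0.45 that did not pass (adjusted p = 0.0973). With the replicate number in the model it did (-1.19, adjusted p = 0.0096).

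No linker histone H1 gene was called, and log2 fold changes of these genes from d0 to d5FS ranged from -0.015 to -3.08. Hist1h1a, the most abundant of them per length, measured 1142 and 2797 CPM in d0, 1118 and 1564 CPM in d3F, and 195 and 734 CPM in d5FS. Both d5FS libraries lay below all others, at a log2 fold change from d0 of -2.22 ± 0.72 (adjusted p = 0.0560). Hist1h1b measured 645 and 1451 CPM in d0, 694 and 884 CPM in d3F, and 71.2 and 418 CPM in d5FS, a log2 fold change of -2.23 ± 0.80 (adjusted p = 0.0765). Both were called lower once the replicate number was in the model, with adjusted p of 0.0040 and 0.0090. Hist1h1e went opposite ways in the replicates: it measured 602 CPM in d0, 729 CPM in d3F and 291 CPM in d5FS of replicate 1, but 281, 424 and 619 CPM in replicate 2. Between d0 and d5FS its log2 fold change was -0.015 ± 0.48 (adjusted p = 0.985), and 0.023 with the replicate number in the model.

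Among the H2A genes, Hist2h2aa1 was the most abundant per length and measured 1217 and 2083 CPM in d0, 1269 and 1760 CPM in d3F, and 685 and 1355 CPM in d5FS. Its d5FS and d0 libraries overlapped, and the log2 fold change was -0.83 ± 0.49 (adjusted p = 0.251). Its copy Hist2h2aa2, all of whose 100-base stretches occur in another transcript, was assigned between 0 and 2.21 CPM. Likewise the H3 gene Hist2h3c1, which had too few counts to be tested, was assigned 5.22 CPM in d3F replicate 1 and 0 in every other library, while Hist2h3c2 held between 216 and 866 CPM.

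Hist1h2ap and Hist1h2ao, a pair of H2A genes that share most of their sequence, differed in how their replicates were ordered. Hist1h2ap was assigned 0 and 73.4 CPM in d0, 3.57 and 72.3 CPM in d3F, and 0 and 48.3 CPM in d5FS, so replicate 2 was high and replicate 1 at or near 0 in every population. It shares 92.2% of its 100-base stretches with Hist1h2ao. Hist1h2ao was assigned 765 and 486 CPM in d0, 777 and 546 CPM in d3F, and 268 and 390 CPM in d5FS. The sum of both was 765 and 559 CPM in d0, 780 and 618 CPM in d3F, and 268 and 439 CPM in d5FS. In this sum replicate 1 was the higher in d0 and d3F, opposite to Hist1h2ap alone. Hist1h2ap made up 0% and 13.1% of the pair's counts for d0, 0.458% and 11.7% for d3F, and 0% and 11.001% for d5FS. The part of read assignment in these levels was not tested. In the main fit the changes of Hist1h2ap rest on its replicate 2 libraries, because replicate 1 was at or near 0. Nothing is read from its fitted changes. Hist1h2ao itself had a log2 fold change of -1.01 ± 0.35 between d0 and d5FS (adjusted p = 0.0691), and was called lower with the replicate number in the model (-1.003, adjusted p = 0.0355).

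**Figure D3:**
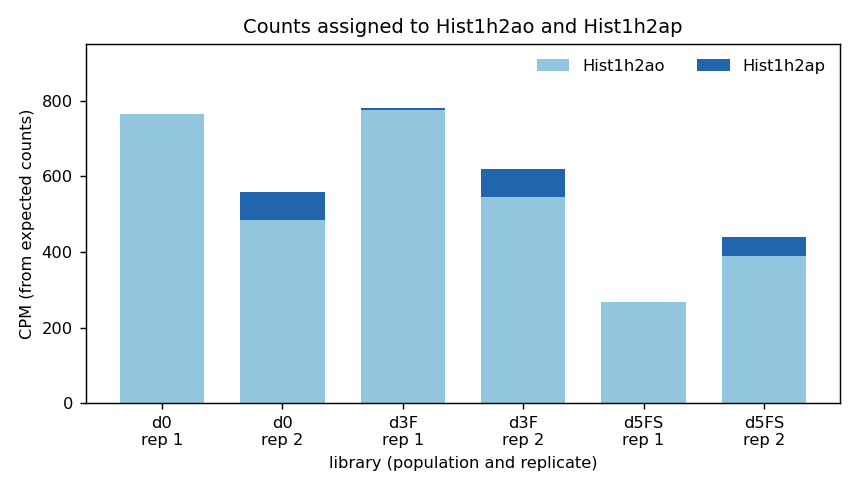
CPM assigned to the H2A genes Hist1h2ao and Hist1h2ap (y axis, stacked bars from 0) in each library (x axis). The Hist1h2ap portion is 0 or near 0 in each replicate 1 library and 48.3 to 73.4 CPM in each replicate 2 library.

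The testis-type genes Hist1h2aa and Hist1h2ba changed most of all histone cluster genes, and most of that change had taken place by d3F. They encode the H2A and H2B variants known as TH2A and TH2B, which are abundant in spermatocytes and are also found in oocytes and early embryos. Hist1h2aa measured 10.3 and 28.8 CPM in d0, 0.35 and 0.05 CPM in d3F, and 0.12 and 0.11 CPM in d5FS, or 227 and 642 counts in d0 and between 1 and 8 counts in each other library. Hist1h2ba measured 8.73 and 21.3 CPM in d0, 0.39 and 0.32 CPM in d3F, and 0 and 0.25 CPM in d5FS. Both genes were thus well detected in d0 and near the limit of detection afterwards, with no overlap between d0 and any later library. From d0 to d3F their log2 fold changes were -6.72 ± 0.88 (adjusted p = 0.0103) and -5.48 ± 0.85 (adjusted p = 0.0144), the only calls among the histone cluster genes in that comparison.

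From d0 to d5FS the log2 fold changes were -7.48 ± 0.95 for Hist1h2aa (adjusted p = 0.0030) and -7.09 ± 0.98 for Hist1h2ba (adjusted p = 0.0036). Such folds rest on few counts in the later libraries. With counts pooled over replicates, the level of Hist1h2aa in d0 was 167 times that in d5FS (exact 95% interval 64.8 to 613) and 94.6 times that in d3F (49.6 to 208). For Hist1h2ba these ratios were 128 (49.7 to 471) and 40.8 (24.95 to 71.8). The intervals cover counting error only. The call of Hist1h2ba from d0 to d3F was lost without either d3F library, with log2 fold changes of -5.50 and -5.45. From d3F to d5FS neither gene was called, with 9 and 4 counts in all for Hist1h2aa.

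Hist1h1t, the testis-type linker histone, was also highest in d0 but kept a low level later. It measured 5.16 and 30.1 CPM in d0, 1.71 and 3.43 CPM in d3F, and 0.61 and 4.04 CPM in d5FS. The level of d0 replicate 1 was close to that of d5FS replicate 2, and the log2 fold changes of -2.93 ± 1.05 to d3F and -3.08 ± 1.06 to d5FS were not called (adjusted p = 0.156 and 0.0681). Both were called lower with the replicate number in the model (adjusted p = 0.0281 and 0.0058). Other germ cell genes moved with them: all 3 of 6 that were tested (Dazl, Ddx4 and Sycp3) fell from d0 to both d3F and d5FS, and the list summed to 30.2 and 27.8 CPM in d0, 2.42 and 1.55 CPM in d3F and 3.10 and 1.82 CPM in d5FS. The defining spermatid genes Tnp1 and Prm1 stayed between 0 and 0.11 CPM. Genes of the rare two-cell-like state of ESC cultures summed to 4.96 CPM in d0 replicate 1 and 89.6 CPM in d0 replicate 2, which stood apart from the other libraries at 3.21 to 5.54 CPM. The part of such cells in the d0 levels of the testis-type genes was not tested.

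**Figure D4:**
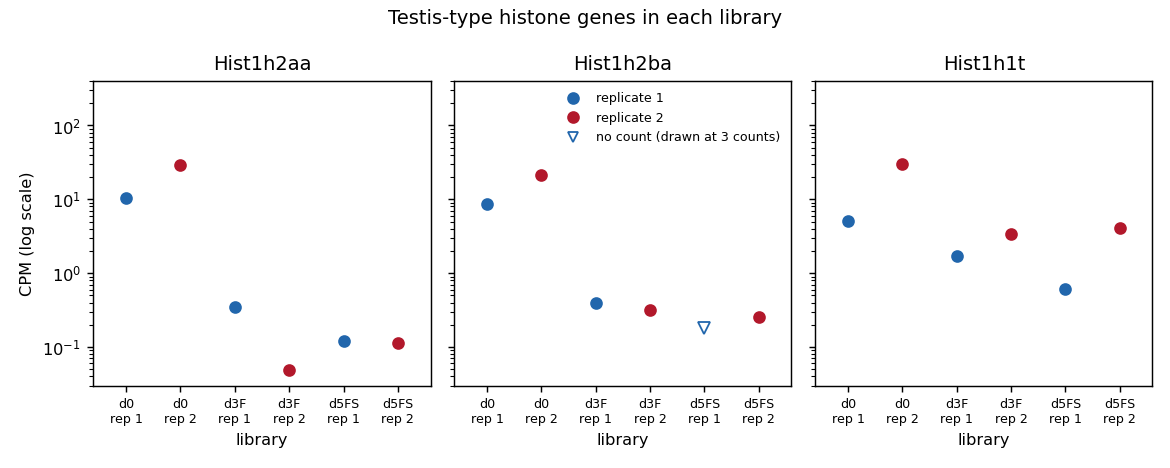
CPM of Hist1h2aa, Hist1h2ba and Hist1h1t (y axis, log scale) in each library (x axis), with replicate 1 in blue and replicate 2 in red; the open triangle is a library with no count, drawn at the CPM of 3 counts. The d0 points of Hist1h2aa and Hist1h2ba lie at 8.73 CPM or higher and all later points at 0.39 CPM or lower.

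Hist1h2ba and Hist1h2aa lie head to head on chromosome 13, with 280 bases between their start sites, apart from the other blocks of the Hist1 cluster. The 250 bases before the start of Hist1h2aa (chr13:23934187-23934436, plus strand) therefore cover most of the stretch from which both are transcribed. They are shown beside the same stretch of Hist3h2ba (chr11:58948661-58948910, plus strand), the gene with the largest decrease outside the testis-type genes, and of Hist2h2bb (chr3:96269450-96269699, plus strand), the most abundant gene. The sequences are from RefSeq (GRCm38.p6), and capitals mark matches on either strand to the TATA box (TATAAA), to the CCAAT box, and to the octamer bound by Oct factors (ATTTGCAT).
Hist1h2aa: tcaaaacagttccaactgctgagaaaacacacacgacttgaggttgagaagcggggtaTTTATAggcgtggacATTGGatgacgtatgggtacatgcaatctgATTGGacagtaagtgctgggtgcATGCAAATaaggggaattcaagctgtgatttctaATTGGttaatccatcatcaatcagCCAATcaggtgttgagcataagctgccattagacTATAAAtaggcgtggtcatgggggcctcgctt
Hist3h2ba: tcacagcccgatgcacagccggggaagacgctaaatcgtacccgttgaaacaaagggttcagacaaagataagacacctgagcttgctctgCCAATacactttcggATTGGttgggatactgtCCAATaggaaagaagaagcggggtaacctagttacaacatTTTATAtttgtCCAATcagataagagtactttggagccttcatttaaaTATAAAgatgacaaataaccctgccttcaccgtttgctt
Hist2h2bb: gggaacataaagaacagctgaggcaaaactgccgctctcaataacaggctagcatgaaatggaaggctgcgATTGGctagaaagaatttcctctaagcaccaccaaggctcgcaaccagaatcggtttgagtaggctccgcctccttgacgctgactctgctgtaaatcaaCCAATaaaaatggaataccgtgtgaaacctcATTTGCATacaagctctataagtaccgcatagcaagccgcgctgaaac
The Hist1h2aa stretch holds a TATAAA on each strand, 192 and 32 bases before the start, 4 CCAAT motifs between them and an octamer. The Hist3h2ba stretch holds 4 CCAAT and 2 TATAAA motifs and no octamer. The Hist2h2bb stretch holds 2 CCAAT motifs and an octamer 48 bases before the start.

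Promoters of 62 histone cluster genes were found in the RefSeq table by accession, as 63 windows of 300 bases that run from 250 bases before the start to 50 after it. CCAAT occurred on either strand in 85.7% of these windows, against 37.4% of all 32851 windows in the table. It was in every window of the H1, H2A, H2B and H3 genes and in 25% of the H4 windows. TATAAA occurred in 55.6%, against 13.6% of all windows. The octamer ATTTGCAT occurred in 38.9% of the H2A and 41.2% of the H2B windows and in no H1, H3 or H4 window, against 1.74% of all windows, and TTCGCGC, a form of the E2F motif, in 17.5% of the histone windows and 1.59% of all. Windows of genes that lie head to head can overlap, so the same letters may be counted for both genes. These matches are descriptions of letters in a window, not sites of binding.

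Of the histone cluster genes, 13 pairs lie head to head, with 163 to 607 bases between their starts (median 228). All but Hist1h2bh and Hist1h3f pair an H2A with an H2B gene. Within the 12 pairs without Hist1h2ap, the log2 fold changes from d0 to d5FS differed by a median of 0.28, and in 9 pairs by less than 0.5. Over all 293 combinations of an H2A with an H2B gene that is not its partner the median difference was 0.60, and 116 differed by less than 0.5. The 2 sets are unlike. The 12 pairs include Hist1h2bh with the H3 gene Hist1h3f. The 293 combinations set Hist1h2aa and Hist1h2ba against genes with far smaller changes. The contrast was not tested. Among the pairs that differed by more than 0.5 were Hist2h2ac and Hist2h2be, at -1.34 and -0.22, and Hist1h2bh and Hist1h3f, at -2.81 and -1.35. By position, genes of the 3 large blocks of Hist1 on chromosome 13 had median log2 fold changes from d0 to d5FS of -1.26 (18 genes, chr13:21715711-21837530), -1.29 (5 genes, chr13:22035122-22043658) and -1.16 (29 genes, chr13:23531044-23764412). The Hist2 genes (chr3:96219885-96270192) had a median of -1.15. Outside these 4 blocks the values were -2.37 for the 2 Hist3 genes in the block on chromosome 11, -7.28 for Hist1h2aa and Hist1h2ba, and -0.94 for Hist4h4. Differences between blocks were not tested.

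From d0 to d3F, only Hist1h2aa and Hist1h2ba among the 67 genes were called, both lower, against 1.9% of all genes called lower and 2.8% called higher. With the replicate number in the model Hist1h1t joined them, for 3 called lower against 3.51% of all genes. The median log2 fold change was -0.24 and 57 genes had a negative value, against a median of -0.01 over all genes. This direction rested on 1 library: without d0 replicate 2 the median was 0.23 and 19 genes were negative. Within replicate 1, 31 genes were lower in d3F than in d0 (median 0.02), and within replicate 2, 62 were (median -0.44). Ranges of d0 and d3F overlapped in CPM in 55 of the 68 genes, and both d3F libraries lay below both d0 libraries in 11, against 17.3% of all genes with a count. The common histone genes thus had no shared direction between d0 and d3F in the 2 replicates.

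From d3F to d5FS, Hist3h2ba and Hist3h2bb-ps were the only genes called, both lower, against 0.461% of all genes called lower and 1.08% called higher. The log2 fold changes were -2.82 ± 0.36 (adjusted p = 0.0174) and -1.73 ± 0.33 (adjusted p = 0.0453). The call of Hist3h2ba was lost without d3F replicate 1 or either d5FS library, and that of Hist3h2bb-ps without any single d3F or d5FS library, with a filter of at least 10 counts in every library (adjusted p = 0.0578) and in DESeq2's test against a log2 fold change of 1 (adjusted p = 1). All 67 genes nonetheless had a negative log2 fold change, with a median of -1.001 against 0.01 over all genes, and 25 had an unadjusted p below 0.05, against 18.1% of all genes. In 54 of the 68 genes both d5FS libraries lay below both d3F libraries, against 18.2% of all genes with a count. With the replicate number in the model 27 genes were called lower, including Hist1h2bh (-2.54), Hist1h3g (-1.98) and Hist1h1a (-1.84), against 3.04% of all genes. Apart from the testis-type genes, the median step was thus larger from d3F to d5FS than from d0 to d3F, in comparisons that share the d3F libraries.

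With the replicates apart, the decrease from d0 to d5FS held in each. Of the 67 genes tested, 64 were lower in d5FS than in d0 within replicate 1 and 66 within replicate 2, 63 of them in both, on log2 CPM scaled by TMM. The median differences were -1.44 and -1.18. From d3F to d5FS 62 genes were lower in both replicates, and the median differences of these were -1.52 and -0.74. The step to d5FS was larger in replicate 1 in 57 of the 62 and larger in replicate 2 in 5, among them Hist1h4i, Hist3h2bb-ps and Hist4h4. The d5FS level was the lower in replicate 1 in 59 of the 62. Hist1h1e was the gene with the largest disagreement from d0 to d5FS, at -1.10 in replicate 1 and 0.96 in replicate 2.

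**Figure D5:**
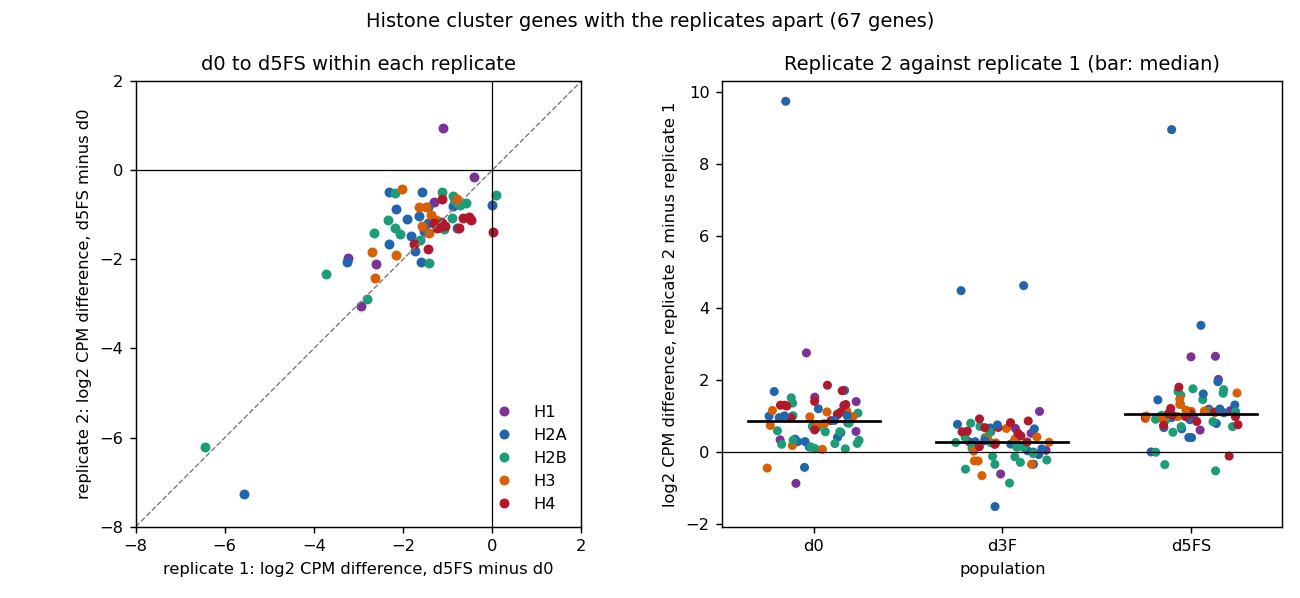
Left, log2 CPM difference from d0 to d5FS of 67 histone cluster genes within replicate 1 (x axis) and replicate 2 (y axis), with the line of equal change dashed. Right, log2 CPM difference of replicate 2 from replicate 1 in each population, 1 point per gene, with the medians of 0.88, 0.28 and 1.07 as bars; colours mark the protein class in both.

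Replicate 2 had more histone cluster counts than replicate 1 in each population. On log2 CPM it was higher in 64 of 67 genes in d0 (median 0.88), 51 in d3F (median 0.28) and 64 in d5FS (median 1.07). With population in the model, the median log2 difference of replicate 2 from replicate 1 was 0.76, against 0.01 for all genes tested, and 62 of 67 genes were positive. In edgeR's quasi-likelihood test no gene passed, among the histone cluster genes or among all genes (0%), with a lowest adjusted p of 0.0731 among the histone cluster genes. At an unadjusted p below 0.05 stood 46 of the 67 genes, against 24.2% of all genes tested. DESeq2's Wald test called 12, all higher in replicate 2, against 519 of all genes in either direction. These were 2.16% of 24054 genes, of which 21436 had a count in any library. As in the sums, the order depends on the scale and turned in TPM for d0 and d3F. Beside Hist1h2ap and Hist2h2aa2, which share most or all of their stretches with another gene, the largest log2 differences were 2.25 for Hist1h1t, 1.52 for Hist1h1b, 1.45 for Hist2h4 and 1.40 for Hist1h1a. Negative values were found in 5 genes, from -0.29 in Hist2h2be and -0.26 in Hist3h2ba to -0.11 in Hist1h1e, -0.07 in Hist3h2bb-ps and -0.04 in Hist1h2ao. RNAs without a poly(A) tail outside the histone clusters had no common order. Rmrp and Rpph1 were higher in replicate 2 in all 3 populations, with log2 differences of 0.98 each. Rnu12 was higher in replicate 2 in d0 and d3F but lower in d5FS (62.3 and 46.5 CPM), and Terc was higher in d0 only (149 and 244 CPM). None of the 4 was called. The histone genes outside the clusters, taken here as replication-independent and polyadenylated, had a median of 0.44 and the S phase genes of 0.31. Whether each of these histone mRNAs has a poly(A) tail was not tested. Histone cluster mRNA was abundant in both replicates, and the part of the library type in the difference was not tested.

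Histone genes outside the clusters were called in both directions from d0 to d5FS. Of 11 tested, 2 rose and 1 fell (2 with the replicate number in the model), against 12.4% and 10.4% of all genes, with a median log2 fold change of 0.07. H1f0, a linker histone typical of differentiated cells, rose by 2.54 ± 0.36 (adjusted p = 0.0038) and had already risen by 2.22 in d3F, and H2afy2, a macroH2A gene, rose by 1.68 ± 0.43 (adjusted p = 0.0278). H2afz fell by 1.46 ± 0.39 (adjusted p = 0.0299). H1f0 measured 30.4 and 24.4 CPM in d0 and 145 and 197 CPM in d5FS, so that it went up while no cluster H1 gene was called. H3f3a, a gene for the replication-independent H3.3, stayed between 637 and 897 CPM in all libraries. H3f3b, also a gene for H3.3, measured 372 and 474 CPM in d0, 569 and 480 CPM in d3F, and 182 and 369 CPM in d5FS. It was not called from d0 to d5FS.

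Genes that act in S phase or with the histone mRNAs are given beside the 10.4% of all genes called lower from d0 to d5FS, and 13.6% with the replicate number in the model. Of 24 genes of S phase and DNA replication 12 fell and none rose, with a median of -1.04, and 14 fell with the replicate number in the model. Among them were Ccne1 (-2.96), which drives entry into S phase, Rrm2 (-1.90), which supplies deoxynucleotides, and Mcm2 (-1.64) of the replicative helicase. Their summed level was 4323 and 4677 CPM in d0, 3788 and 3495 CPM in d3F and 1685 and 2399 CPM in d5FS, and thus followed the summed histone level in being lowest in d5FS. Of 18 genes of histone pre-mRNA processing and decay 3 fell, namely Srrt (-1.56), Zfp473 (-1.23) and Lsm1 (-1.04), against 10.4% of all genes. Their median was -0.61, and 5 fell with the replicate number in the model, against 13.6% of all genes. The difference from all genes was not tested. Slbp, the stem-loop binding protein, measured 161 and 129 CPM in d0 and 114 and 107 CPM in d5FS and was not called. Of 19 histone chaperones 5 fell, among them Asf1b (-2.31), Hat1 (-1.64) and Nasp (-1.61), which carry or modify newly made histones, with a median of -0.82 (8 with the replicate number in the model).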

How the data were processed

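Per the labels and the methods, total RNA of FACS-sorted d0, d3F and d5FS cells was depleted of ribosomal RNA (the sample list differs and names 1 library of each population mRNA), sequenced as paired ends by the authors, aligned to mm10 with STAR and quantified with RSEM (versions not given in the sources used here). Expected counts, as deposited, are estimated fragments per gene without normalization. The deposited TPM values were scaled by the authors for effective length and to a fixed sum. The deposited FPKM values were not used. Groups and replicate numbers were taken from the sample titles. The methods describe the replicates as biologically independent, and the labels do not say how they were obtained.

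CPM was computed from expected counts and their sum per library. Expected counts were rounded and tested with edgeR 4.0.16 in R 4.3.3 (filterByExpr, TMM, glmQLFit, glmQLFTest, a mean per population, 3 residual degrees of freedom, Benjamini-Hochberg over 14539 genes). Standard errors were obtained by dividing the size of each log2 fold change by the root of its F statistic. Within-replicate differences used log2 CPM with a prior count of 2. Same-numbered libraries deviated together from their population means (correlations over 14539 genes of 0.314, 0.324 and 0.278), so the replicate number was also fitted as a block, and it was tested as a term over the 3 populations with 2 residual degrees of freedom. With 2 libraries against 2, an exact permutation test cannot go below 0.33. DESeq2 1.42.0, other filters and size factors, and fits without each library were alternatives. Sequences came from GENCODE M21 and RefSeq tables (GRCm38).

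The histone cluster genes, gene lists and tests were chosen with earlier results of these data known. Named genes are the 3 genes Hist1h2aa, Hist1h2ba and Hist1h2ap, the 5 with the highest mean TPM, up to 5 called each way per comparison, the 5 with the largest differences between replicates each way, and the most abundant of each class and cluster. Genes outside this rule were named after their values were seen.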

Additional observations from a re-analysis of the deposited data

How the results depend on the processing

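The directions of the summed levels and of the calls held in most settings, while the counts of calls moved; the cause was not tested. From d0 to d5FS 20 histone cluster genes were called, and 48 without a filter on low counts, 41 with DESeq2's Wald test, 6 with that test against a log2 fold change of 1, 45 with the replicate block, and 6 to 33 without single libraries. From d3F to d5FS 2 were called, beside 224 of all 14539 genes. Without a filter 29 were called, beside 1423 of 21376 genes. With at least 10 counts in every library 1 was called, beside 144 of 12094 genes. The Wald test called 15, beside 1059 of 24054 genes, and against a log2 fold change of 1 it called 1, beside 189. The replicate block gave 27, beside 918 of 14539 genes. A fit of only these 2 populations gave 5, beside 529 of 13797 genes. Without single libraries the median log2 fold change ranged from -1.66 to -0.58. From d0 to d3F 2 were called, beside 683 of all 14539 genes. Without a filter 4 were called, beside 1933 of 21376 genes. With at least 10 counts, which leaves out both called genes, 0 were called, beside 357 of 12094 genes. Without single libraries the median log2 fold change ranged from -0.63 to 0.23. Between replicates 0 were called, beside 0 of all 14539 genes. Without a filter 11 were called, beside 309 of 21376 genes, and the Wald test called 12, beside 519 of 24054 genes. Without single libraries the median log2 difference of the histone cluster genes ranged from 0.57 to 0.95. In deposited TPM the summed levels of d0 replicate 1, d3F replicate 1 and d3F replicate 2 were 73679, 74230 and 56974. Signs turned with the replicate block for Hist1h2ap (1.59) and Hist2h2aa2 (-0.77) from d0 to d3F and for Hist1h1e (0.023) from d0 to d5FS, for Hist2h4 from d0 to d3F with DESeq2 size factors (-0.037), at least 10 counts (-0.026) and both DESeq2 tests (-0.023), and for Hist1h2ao from d0 to d3F without a filter (0.012). Without single libraries, log2 fold changes that turned sign ranged as follows. Those of Hist1h2ap and Hist2h2aa2 rest on few libraries. Where a population was left with no count, the values rest on the prior count of the model. Nothing is read from them. From d0 to d3F the ranges were Hist1h1a -1.26 to 0.28, Hist1h1b -1.08 to 0.34, Hist1h1e -0.049 to 0.80, Hist1h2ao -0.19 to 0.22, Hist1h2ap -3.65 to 12.65, Hist1h4d -0.45 to 0.18, Hist1h4f -0.81 to 0.24, Hist1h4h -0.81 to 0.51, Hist1h4k -0.75 to 0.37, Hist2h2aa1 -0.66 to 0.36, Hist2h2aa2 -7.26 to 1.52, Hist2h2bb -0.72 to 0.10, Hist2h4 -0.64 to 1.24, Hist3h2a -0.53 to 0.37, Hist3h2ba -0.52 to 0.34, Hist3h2bb-ps -0.19 to 0.16, Hist4h4 -0.29 to 1.00. From d0 to d5FS they were Hist1h1e -0.72 to 0.47, Hist1h2ap -12.76 to 11.94, Hist2h2aa2 -7.29 to 0.38, Hist2h2be -0.53 to 0.034. From d3F to d5FS they were Hist1h1e -1.04 to 0.14, Hist1h1t -2.17 to 0.65, Hist1h2aa -1.47 to 1.07, Hist1h2ap -12.69 to 2.87, Hist2h2aa2 -7.59 to 6.41. With 1 library left in a population, that library is assumed to vary like the others. Depth limits the testis-type genes after d0, where 3 counts correspond to between 0.132 and 0.182 CPM.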
